A study of Arabidopsis thaliana with 12 samples.

Results

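The genes described are PRK, PPDK and ATSPS4F, 3 enzyme genes of carbon fixation, pyruvate metabolism and sucrose synthesis in Arabidopsis thaliana. They were chosen by annotation, as features that name exactly 1 gene, and each lies on 1 feature, so 3 of the 3439 features on the array are covered. PRK (AT1G32060) is on feature 3151, PPDK (AT4G15530) on feature 349 and ATSPS4F (AT4G10120) on feature 2649. All 3 were above 0 on all 12 arrays and passed the filter on low values. The choice was made with earlier results of the same comparison known, so the differences between the groups are given as a description, with no p-values, and calls of these genes in the fit across all features are given only as counts beside the share of all features called.

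The study compared 2 groups of wild-type plants of ecotype Columbia 0, each profiled on 6 arrays from total RNA. Plants of the recovery group had spent 1 h in darkness and were then returned to light, and the time in light is given as 2 h by title and description but as 1 h by source name, and the labels do not say which holds. Plants of the light-adapted group had no dark period in their labels. Neither organ nor plant age is given, it is not stated whether arrays of a group came from separate plants, and the darkness was not sampled on its own.

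PRK encodes phosphoribulokinase, the chloroplast enzyme that uses ATP to make ribulose bisphosphate, the molecule to which Rubisco adds CO2. The enzyme is known to be switched on in light through thioredoxin and to be held inactive in darkness in a complex with CP12 and glyceraldehyde-3-phosphate dehydrogenase. ATSPS4F encodes a sucrose phosphate synthase, which joins UDP-glucose and fructose 6-phosphate in the cytosol on the way to sucrose, the main sugar that leaves export. PPDK encodes pyruvate, orthophosphate dikinase, which interconverts pyruvate and phosphoenolpyruvate. It is best known from the carbon-concentrating cycle of plants such as maize, and in plants without that cycle, such as Arabidopsis, it is known for supplying phosphoenolpyruvate and for moving nitrogen out of ageing leaves.

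The transcripts of all 3 genes were on average less abundant in recovery plants. This held in 6 of 6 same-numbered pairs of arrays on the deposited scale and after quantile normalization. After median centring, described below, it held in 6 of 6 pairs for PPDK and ATSPS4F and in 4 of 6 for PRK. PRK in recovery plants was at 20.7% to 49.5% of the light-adapted intensity over the 6 pairs, PPDK at 3.88% to 32.0% and ATSPS4F at 13.3% to 43.2%. The values are deposited intensities, taken as linear, and the authors' background correction and normalization are not stated in the labels. On this scale the median log2 difference over all 2364 tested features, recovery minus light adapted, was itself -0.82. In RNA from whole samples, fewer cells that express a gene and less RNA per cell cannot be told apart.

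Several measures of the arrays moved with the groups. The median intensity of an array, zeros included, was 0.0358 to 0.0400 in recovery and 0.0710 to 0.103 in light-adapted plants. At 0 were 23.3% to 28.6% of the features in recovery against 17.9% to 22.2% in light-adapted plants. Summed intensities overlapped, at 2288 to 3314 in recovery and 2286 to 3265 in light-adapted plants. By array number they were close in both groups. Recovery and light-adapted sums were 2539 and 2557 on array 1, 3314 and 3233 on array 3, and 2288 and 2286 on array 5. The part of these shifts in the differences below was not tested, and each difference is therefore given on the deposited scale and on normalized scales. None of the 9 markers of root, flower and seed looked up lies on a feature with 1 gene, so the makeup of the samples was not checked.

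PRK, the Calvin-Benson cycle gene, had deposited intensities of 1.83, 1.85, 2.17, 2.12, 1.02 and 1.06 on recovery arrays 1 to 6, against 3.69, 3.75, 4.75, 5.93, 4.94 and 4.54 on light-adapted arrays 1 to 6. The groups did not overlap, nor did they for ATSPS4F and PPDK below. In 21.1% of the 2364 features that passed the filter on low values, every recovery array was likewise below every light-adapted array. Recovery arrays 5 and 6 were the lowest of their group, while the lowest of the light-adapted group were arrays 1 and 2. The mean was 1.68 ± 0.508 in recovery and 4.60 ± 0.831 in light-adapted plants (SD, n = 6 each).

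The log2 difference of PRK, recovery minus light adapted, was -1.50 ± 0.557 on the deposited scale and -1.63 ± 0.335 after quantile normalization (SD over 6 pairs), the second a level 3.10-fold higher in light-adapted plants. On the deposited scale the difference was -1.01 in pair 1, -1.02 in pair 2, -1.13 in pair 3 and -1.48 in pair 4, and reached -2.27 in pair 5 and -2.09 in pair 6. Pairs 5 and 6 thus had the largest differences of PRK. Each array was then centred on the median of its log2 values with zeros left out, unlike the array medians above. After this the mean difference of PRK was -0.50, pairs 1 and 2 turned to 0.11 and 0.11, pair 3 was at -0.11, and the groups overlapped. Pairs 5 and 6 were at -1.43 and -1.25 after the same centring.

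**Figure D1:**
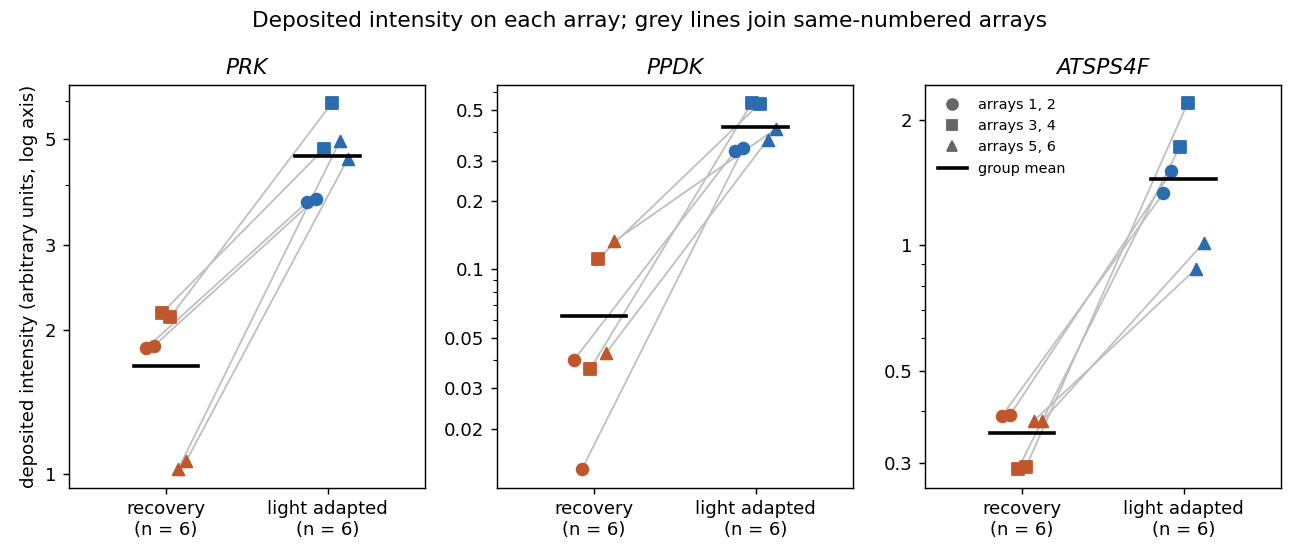
Deposited intensity (arbitrary units, log axis) of PRK, PPDK and ATSPS4F on each array, with recovery arrays on the left and light-adapted arrays on the right of each panel. Symbols mark arrays 1 and 2, 3 and 4, and 5 and 6. Black bars are group means of 6 arrays and grey lines join same-numbered arrays. For each gene the highest recovery array lies below the lowest light-adapted array, as in 21.1% of the 2364 features tested.

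ATSPS4F, the sucrose phosphate synthase gene, had deposited intensities of 0.388, 0.390, 0.289, 0.293, 0.379 and 0.377 on recovery arrays 1 to 6, against 1.33, 1.51, 1.72, 2.20, 0.877 and 1.01 on light-adapted arrays 1 to 6. The groups did not overlap, and the recovery arrays covered a narrow range while light-adapted arrays 5 and 6 were the lowest of their group and 3 and 4 the highest. The mean was 0.353 ± 0.0481 in recovery and 1.44 ± 0.483 in light-adapted plants (SD, n = 6 each). The coefficient of variation was 13.6% in recovery and 33.5% in light-adapted plants, an order opposite to that of PRK, where it was 30.3% in recovery and 18.1% in light-adapted plants.

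The log2 difference of ATSPS4F was -1.97 ± 0.656 on the deposited scale and -1.74 ± 0.692 after quantile normalization (SD over 6 pairs), the second a level 3.34-fold higher in light-adapted plants. On the deposited scale pairs 3 and 4 had the largest differences, -2.57 and -2.91, pairs 1 and 2 were at -1.78 and -1.95, and pairs 5 and 6 had the smallest, -1.21 and -1.43. After median centring the mean difference was -0.98, with 6 of 6 pairs still below 0, from -0.37 in pair 5 to -1.87 in pair 4. The groups did not overlap, and the share of all features without overlap was not computed after this centring.

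PPDK, the pyruvate dikinase gene, was dim in recovery plants. Its deposited intensities were 0.0399, 0.0132, 0.0364, 0.111, 0.0430 and 0.133 on recovery arrays 1 to 6, against 0.333, 0.342, 0.537, 0.534, 0.372 and 0.414 on light-adapted arrays 1 to 6. The groups did not overlap, with recovery arrays 4 and 6 the highest and array 2 the lowest of their group. The mean was 0.0628 ± 0.0476 in recovery and 0.422 ± 0.0927 in light-adapted plants (SD, n = 6 each), a coefficient of variation of 75.8% in recovery against 22.0% in light-adapted plants.

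The log2 difference of PPDK was -3.11 ± 1.09 on the deposited scale and -2.40 ± 1.03 after quantile normalization (SD over 6 pairs), 8.62-fold and 5.28-fold higher levels in light-adapted plants. Pair 2, which holds the lowest recovery value, was at -4.69 on the deposited scale, and pair 6 was at -1.64. With recovery intensities this near 0, the size of the difference is uncertain, and the fold moved by over 1.5 times between the deposited and the quantile-normalized scale. Median centring left the log2 difference at -2.11, with 6 of 6 pairs below 0 and no overlap between the groups. The share of all features without overlap was again not computed.

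**Figure D2:**
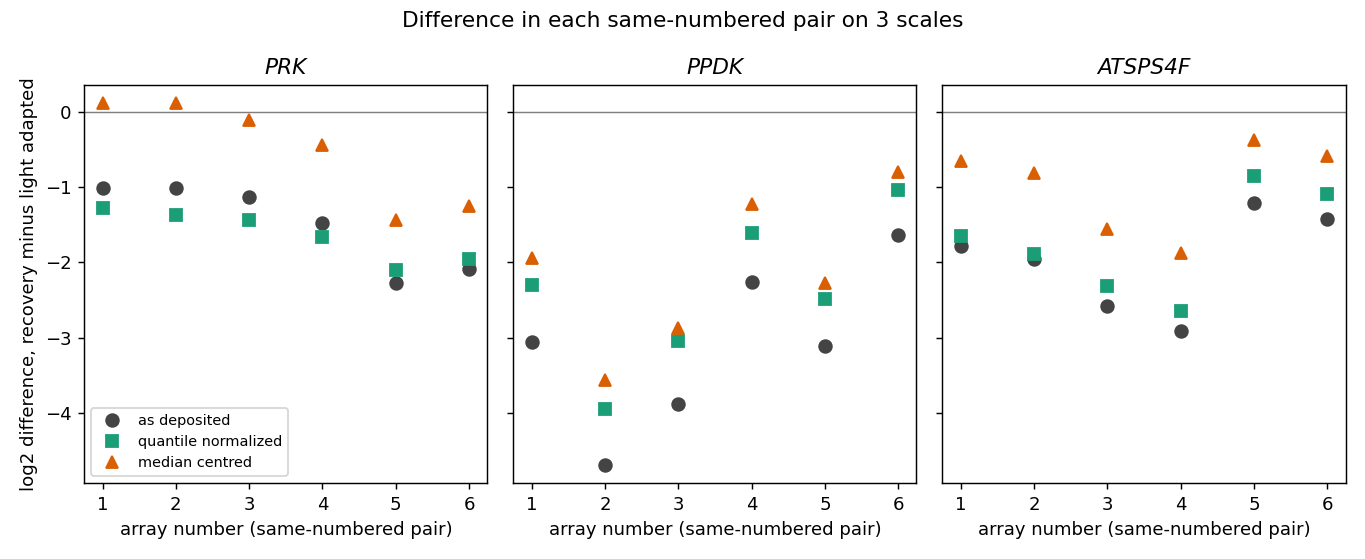
Log2 difference, recovery minus light adapted, in each same-numbered pair of arrays for PRK, PPDK and ATSPS4F, on the deposited scale (circles), after quantile normalization (squares) and after median centring (triangles). Median centring moved every pair upward, and only PRK in pairs 1 and 2 passed 0, at 0.11 in both.

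Ratios of 2 genes on the same array do not depend on a single scale factor of that array. They were taken on the deposited scale. Quantile normalization is not a single factor, so it can change them. The log2 ratio of PRK to ATSPS4F, recovery minus light adapted, was 0.77, 0.93, 1.44 and 1.42 in pairs 1 to 4, where ATSPS4F was reduced more than PRK. It was -1.06 and -0.67 in pairs 5 and 6, where PRK was reduced more, and its mean of 0.47 ± 1.08 (SD over 6 pairs) was smaller than its spread. PRK and ATSPS4F did not keep a constant ratio over the pairs.

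The log2 ratio of PPDK to ATSPS4F was lower in recovery in 5 of 6 pairs, with a mean of -1.13 ± 1.20, and pair 4 ran the other way at 0.64. The ratio of PRK to PPDK was lower in recovery in 1 of 6 pairs, pair 6, with a mean of 1.61 ± 1.50. The larger mean difference of PPDK was thus about the size of its spread over the pairs in both ratios, and none of these 3 ratios was tested. These counts and means hold for the deposited scale. After quantile normalization the difference in pair 4 was -1.66 for PRK and -1.61 for PPDK. In pair 6 it was -1.03 for PPDK and -1.09 for ATSPS4F, so the order of the genes was reversed in both cases.

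In recovery, arrays 1 and 2, 3 and 4, and 5 and 6 resembled each other for PRK and ATSPS4F. This division was seen in the values and is not named in the labels. For ATSPS4F in recovery the ratio of the higher to the lower array of such a couple was 1.00, 1.01 and 1.00, while the means of the 3 couples spanned 1.34-fold. For PRK in recovery these ratios were 1.01, 1.02 and 1.04, and the couple means of 1.84, 2.14 and 1.04 spanned 2.05-fold. Over the 1429 features above 0 on all arrays, the median ratio within a couple was 1.20, 1.21 and 1.26 in recovery and 1.15, 1.20 and 1.25 in light-adapted plants.

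In light-adapted plants the couples of PRK differed within by 1.01-fold, 1.25-fold and 1.09-fold and those of ATSPS4F by 1.13-fold, 1.28-fold and 1.16-fold. PPDK behaved differently in recovery, where arrays of a couple differed by 3.01-fold, 3.06-fold and 3.09-fold, against 1.03-fold, 1.01-fold and 1.11-fold in light-adapted plants. Whether a couple is 1 sample measured again is not stated in the labels, and if it is, each group holds 3 samples and not 6. By couple, the quantile-normalized difference of PRK was -1.32, -1.55 and -2.03, that of ATSPS4F was -1.77, -2.48 and -0.97, and that of PPDK was -3.12, -2.32 and -1.76. All 9 of these quantile-normalized values were below 0, with PRK largest and ATSPS4F and PPDK smallest in arrays 5 and 6. After median centring, PRK was above 0 in both pairs of the first couple, at 0.11 in pair 1 and 0.11 in pair 2.

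**Figure D3:**
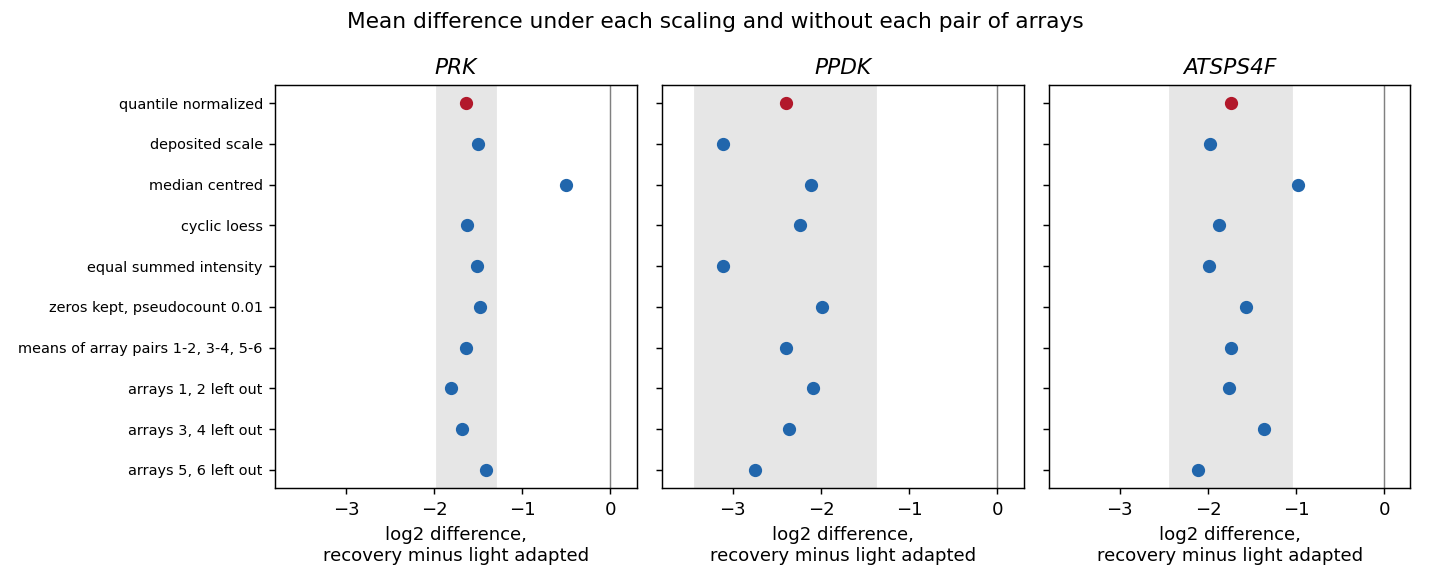
Mean log2 difference, recovery minus light adapted, of PRK, PPDK and ATSPS4F with quantile-normalized values (red) and under other settings (blue). The settings are other scalings, the 3 couples of arrays averaged, and each couple left out. Averaging the couples repeats the quantile-normalized value by construction. Grey bands span 1 SD over the 6 pairs on each side of the quantile-normalized value; median centring put PRK, at -0.50, and ATSPS4F, at -0.98, outside their bands.

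In the fit across all 2364 tested features (limma, adjusted p under 0.05), 3 of 3 genes were called lower in recovery with quantile-normalized values, where 18.4% of all features were called in that direction. On the deposited scale it was 3 of 3, where 36.8% of all features were called lower, and after median centring it was 2 of 3, PPDK and ATSPS4F, where 13.7% were. With same-numbered arrays as blocks it was 3 of 3 on both the quantile-normalized and the deposited scale, where 18% and 37.9% of all features were called lower. In 21.1% of the tested features every recovery array was below every light-adapted array on the deposited scale, as in 3 of these 3 genes. The median difference of the 3 genes was -1.74 against -0.038 over all features with quantile-normalized values, -1.97 against -0.82 on the deposited scale and -0.98 against 0.19 after median centring. Since the genes were chosen with earlier results of this comparison known, nothing is read from these counts and medians.

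The neighbouring steps of carbon metabolism could be followed only in small part. Lists of the Calvin-Benson cycle, sucrose synthesis and export, phosphoenolpyruvate, pyruvate and malate, starch, photorespiration, and sucrose breakdown, together with the 9 organ markers, held 137 genes besides the 3. Of the 137, 3 lie on a feature with exactly 1 gene, 4 lie only on features with several genes, and 1 was tested.

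The tested gene was AT5G58330, which encodes the NADP-dependent malate dehydrogenase, a chloroplast enzyme that turns oxaloacetate into malate and is activated through thioredoxin in light. Its deposited intensities were 0.0504, 0.0366, 0, 0.0625, 0 and 0.122 on recovery arrays 1 to 6, against 0.313, 0.410, 0.0194, 0.230, 0.0546 and 0.0407 on light-adapted arrays 1 to 6. The groups overlapped. With zeros kept, the mean was 0.0452 ± 0.0455 in recovery and 0.178 ± 0.164 in light-adapted plants (SD, n = 6 each). Of the same-numbered pairs, only pair 6 was higher in recovery. With the 2 zeros left out, both on recovery arrays, the log2 difference was 0.13 ± 0.924 (SE, limma adjusted p = 0.931, unadjusted p = 0.893), so 0 of 1 other genes were called. Its sign turned to -0.76 with unnormalized values (limma adjusted p = 0.489) and to -0.75 with same-numbered arrays as blocks (limma adjusted p = 0.565). Of all tested features, 36.9% were called in either direction.

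SBPASE (AT3G55800), the sedoheptulose-bisphosphatase of the Calvin-Benson cycle, was listed at 0 on 11 of 12 arrays, and AT1G32080, a chloroplast envelope transporter of photorespiration known as PLGG1, was listed at 0 on 7 of 12. Neither was tested. How zeros arose in the deposited values is not stated, so they say nothing of these genes' expression.

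The genes whose profiles over the 12 arrays were nearest to each of the 3 were found by the root mean square difference of quantile-normalized log2 values, each less the gene's own mean, among 257 other single-gene features above 0 on all arrays. The nearest to PRK were AT3G06570 at 0.22, LHB1B2 at 0.26 and CML30 at 0.33, against a median of 1.13 over the candidates. LHB1B2 encodes a light-harvesting chlorophyll-binding protein of photosystem II and CML30 a calmodulin-like protein. LHB1B2 differed by -1.28 between recovery and light-adapted plants and CML30 by -1.75. The distance takes in the difference between the groups, so the choice of nearest profiles itself favours genes with similar differences.

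The nearest to ATSPS4F were AT4G39690 at 0.18, CML30 at 0.24 and AT3G06570 at 0.42, against a median of 1.19. Like ATSPS4F, AT4G39690 and CML30 were lowest on recovery arrays 3 and 4. For PPDK the nearest, AT5G41960 at 0.82, AT3G32930 at 0.84 and AT3G06570 at 0.85, lay farther off, against a median of 1.61, with ATSPS4F at 0.95 and PRK at 0.97. PRK and ATSPS4F were 0.44 apart, ATSPS4F ranking 12 among the candidates for PRK and PRK ranking 5 for ATSPS4F. AT3G06570 stood among the nearest of all 3 genes, and its difference was -1.64, a fall that the choice by profile likewise favours.

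**Figure D4:**
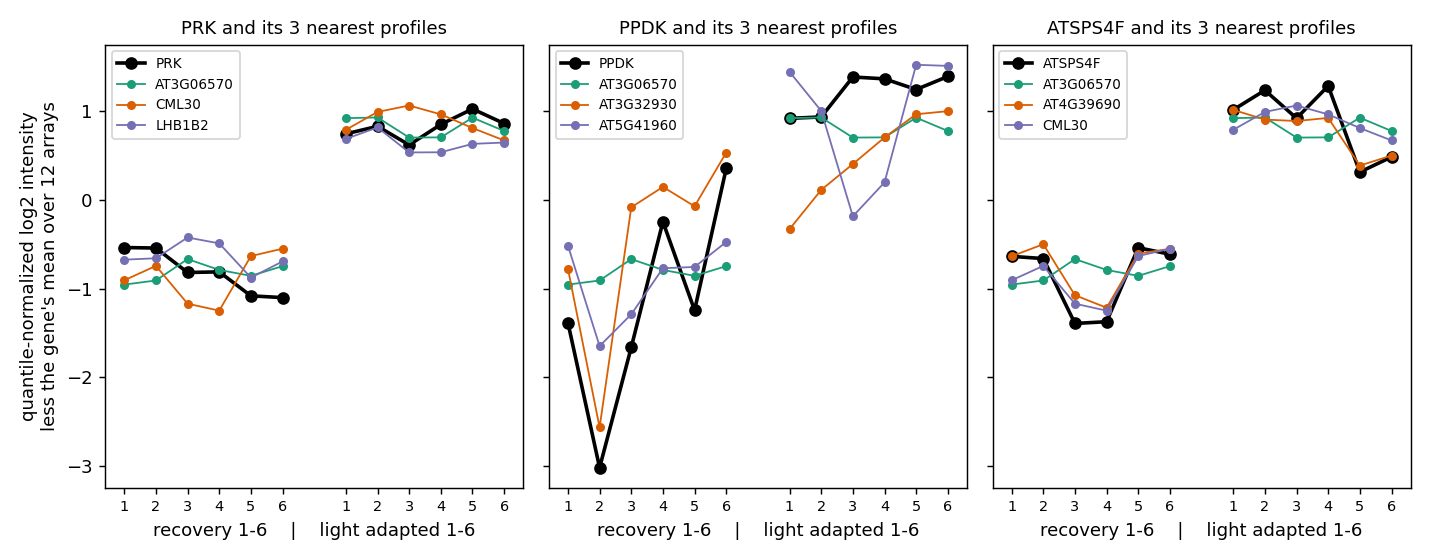
Quantile-normalized log2 intensity, less each gene's mean over the 12 arrays, of PRK, PPDK and ATSPS4F (black) and the 3 genes nearest to each (colours), on recovery arrays 1 to 6 at the left and light-adapted arrays 1 to 6 at the right of each panel. The profiles around ATSPS4F dip together on recovery arrays 3 and 4, except AT3G06570, and PPDK, AT3G32930 and AT5G41960 are each lowest on recovery array 2.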

How the data were processed

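Expression was measured on 12 arrays with 1 channel per sample, 6 of recovery and 6 of light-adapted plants, grouped by their titles. The values are intensities deposited by the authors, from 0 to a highest value of 100 on each of the 12 arrays. Scanner, background correction, normalization, scale and centring are not given in the sources used, and the values were read as linear because they hold exact zeros and nothing negative. Precision is limited by the number of arrays.

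Gene names came from the platform annotation, brought up to date by gene identifier with RefSeq's gene table of TAIR10.1. It gives 1 gene for 692 of the 3439 features (690 matched the table), several for 870 and none for 1877. Coordinates are left out, as no build is named for the array, and no sequences were used here.

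Log2 intensities, with zeros missing, were quantile normalized over all features. Features with at least 4 values above 0 in each group, 2364 in all and 452 with 1 gene, were compared with lmFit and eBayes of limma 3.58.1 in R 4.3.3 (two-sided, Benjamini-Hochberg adjustment over all of them, called under 0.05), after a check on simulated data. Figures were drawn with matplotlib 3.10.9. P-values rest on the spread among arrays of a group, or on the spread left after the block where it was used. The eBayes step draws this spread toward a value shared across features, and the spread may be technical. Genes were named if they were the 3 chosen, if they were tested genes of the carbon metabolism lists, or if they were among the 3 nearest profiles of each. SBPASE and AT1G32080 were named outside this rule, after their values were seen. The genes, lists and alternatives were chosen with earlier results of these data known. The deviations of same-numbered arrays from their group means correlated with r of 0.108 to 0.193 in the 6 pairs across 1429 features, and 12 of 12 arrays correlated best with their own number, so on the evidence of the values, not the labels, the numbers were taken to pair the arrays. Alternatives were other scalings, filters, kept zeros, the replicate block and arrays left out.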

Additional observations from a re-analysis of the deposited data

How the results depend on the processing

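PRK, PPDK and ATSPS4F were lower in recovery in all 25 alternatives run on each. Median centring moved PRK to -0.50 and ATSPS4F to -0.98 by more than the SD over pairs, and the other 24 alternatives of each, and all 25 of PPDK, stayed within it. This SD was 0.335 for PRK, 0.692 for ATSPS4F and 1.03 for PPDK. The limit was thus widest for PPDK, and the counts do not rank the genes by stability. PPDK ran from -3.12 with equal summed intensity to -1.99 with a pseudocount of 0.01. Leaving out each array in turn gave -1.69 to -1.56 for PRK, -2.70 to -2.02 for PPDK and -1.86 to -1.62 for ATSPS4F. Leaving out arrays 1 and 2, 3 and 4, or 5 and 6 of both groups, a choice made after the data were seen, gave -1.80, -1.68 and -1.41 for PRK, -2.09, -2.36 and -2.75 for PPDK, and -1.76, -1.37 and -2.12 for ATSPS4F. The replicate block, the other filters on low values and the averaging of couples left the differences the same by construction, at -1.63, -2.40 and -1.74. The block on the deposited scale likewise repeated the deposited-scale differences. These alternatives could not have moved the 3 genes, so they add nothing to the counts of 24 and 25. With the replicate block limma called 832 features in place of 873, with 3 of the 3 genes called lower in both fits. With the 3 couples of arrays averaged, 405 features were called in place of 873, 402 of them shared with the same sign, with fewer samples. Leaving out each array gave 781 to 858 calls. The split of calls moved with scaling: 438 higher and 435 lower after quantile normalization, 226 and 870 with unnormalized values, 646 and 323 after median centring.

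AT5G58330 was called under none of its 19 alternatives, and its sign turned in 10: to -0.76 on the deposited scale, -0.76 with equal summed intensity, -0.91 with zeros kept, -0.75 with the replicate block, -1.60 with the block on the deposited scale, and -0.28 and -0.78 without arrays 3 and 4 or 5 and 6. Single arrays left out gave -0.41 to 0.59, below 0 without light-adapted replicates 3 (-0.41), 5 (-0.047) and 6 (-0.14). The cause was not tested.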
